A study of Mus musculus with 12 samples.

Results

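The collagen chains described here are 10 genes, of 8251 named on the array, measured by the 16 probe sets (of 12422) whose platform annotation gave their symbols. The fibrillar chains Col1a1, Col1a2, Col3a1, Col5a1 and Col5a2 had 10 probe sets, the type VI chains Col6a1, Col6a2 and Col6a3 had 4, and the basement membrane (type IV) chains Col4a1 and Col4a2 had 2. Each probe set was kept apart. All 16 lay above the floor (the lowest usable level, log2 intensity 4.53) on enough arrays to be tested, and none of their values was at the floor. They are 16 of the 10331 probe sets tested.

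The study measured total RNA of limb muscle on 12 arrays, taken at 3 weeks of age. Dysf_null mice, of the line C57BL/10-SJL.Dysf, are labelled Dysf -/-. Dysferlin is a membrane repair protein of muscle fibres and other cells, and the mutant allele of the SJL strain is carried by every cell, not by fibres alone. Control mice, of the strain C57BL/10, are labelled Dysf +/+. Line and genotype go together on every array, so the Dysf allele cannot be told apart from other sequence differences between the lines. A genotype difference below means this whole contrast. The muscles are labelled QF and TA, understood here as quadriceps femoris, near the trunk, and tibialis anterior, farther down the limb. The groups Dysf_null_QF, Control_QF, Dysf_null_TA and Control_TA had 3 arrays each. The labels do not say whether the replicates of a group were separate mice, so the spread behind each p-value may be technical.

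Collagens are built from 3 chains wound into a triple helix. Fibrillar collagens pack side by side into the fibres that bear tension in the perimysium, endomysium and tendon. Type I is made of Col1a1 and Col1a2, type III of Col3a1 alone, and type V (Col5a1, Col5a2) starts and limits the growth of type I fibrils. Type VI collagen forms beaded microfilaments next to the basement membrane of the fibre, and mutations in its chains cause congenital muscular dystrophy in humans. Type IV collagen is a network former: Col4a1 and Col4a2 chains make the sheet that surrounds every muscle fibre and capillary. In muscle, fibrillar and type VI chains are made mainly by fibroblasts, while type IV chains are also made by endothelial and mural cells and by the fibres.

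The windows upstream of 3 fibrillar genes are shown because these genes had the largest differences in QF among the members with a promoter entry. RefSeq entries (GRCm38.p6) were matched for 8 of the 10 genes, with 9 windows. Each sequence is the 150 bases before the annotated start, on the plus strand, and capitals mark matches to the motifs named after them.
Col3a1, chr1:45311388-45311537: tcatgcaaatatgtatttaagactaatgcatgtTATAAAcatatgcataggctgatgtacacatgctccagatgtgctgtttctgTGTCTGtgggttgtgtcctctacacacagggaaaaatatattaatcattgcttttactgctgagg
Col1a2, chr6:4505468-4505617: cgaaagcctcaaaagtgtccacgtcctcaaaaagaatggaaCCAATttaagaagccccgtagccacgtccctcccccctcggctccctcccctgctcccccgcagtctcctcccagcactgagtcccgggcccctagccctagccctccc
Col5a1, chr2:27886275-27886424: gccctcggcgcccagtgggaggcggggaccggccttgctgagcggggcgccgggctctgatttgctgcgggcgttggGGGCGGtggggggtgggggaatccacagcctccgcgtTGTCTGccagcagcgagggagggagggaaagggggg
Both strands were searched for 4 short motifs, none of which contains another: the CCAAT box, the TATA box TATAAA, the GC box GGGCGG, and the element CAGACA that SMAD proteins can bind, which reads TGTCTG on the other strand. CCAAT was found in 3 of the 9 member windows (Col1a2, Col4a1 and Col4a2) and in 24.5% of 32851 windows of this length. TATAAA was found in 1 (Col3a1), against 7.57% of all windows. GGGCGG was found in 3 (Col4a2, Col5a1 and Col6a2), against 28.6%. CAGACA was found in 2 (Col3a1 and Col5a1), against 10.3%. These are matches of letters and say nothing of binding. Col4a1 and Col4a2 lie head to head: their annotated first bases are 21 bases apart on opposite strands of chromosome 8, and the annotated transcripts overlap there.

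The arrays were checked before the chains were compared. No probe set named Dysf was measured, so the genotype labels could not be set against the dysferlin transcript. Hoxa11, which patterns the middle segment of the limb, was at the floor on every QF array and at 6.18 to 6.57 on the TA arrays. The second array of each QF group stood apart: its median correlation with the remaining arrays was 0.876 in Dysf_null_QF and 0.866 in Control_QF, where the 10 other arrays had 0.926 to 0.959. Arrays with the same replicate number in the same muscle deviated together from their group means (r of 0.39, 0.71 and 0.66 in QF and 0.18, 0.11 and 0.23 in TA). Each genotype result is therefore also given with the replicate number as a block within each muscle ("with the block"), which compares same-numbered arrays, where that changes it. The labels do not say what a replicate number shared between genotypes stands for, so this pairing was inferred from these same data. Differences are on the log2 scale, with the standard error (SE) of limma's fit to all 12 arrays. The p-values came from limma and were adjusted by the Benjamini-Hochberg method over all 10331 probe sets, and a probe set was called at an adjusted p under 0.05. In whole muscle, more cells of a type and more RNA per cell cannot be told apart.

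In QF, Dysf_null mice had higher levels of fibrillar and type VI chains, and the difference was largest for Col3a1. On the main fit 2 of the 16 probe sets were called higher, Col3a1 and Col6a3, and 0 lower, against a background of 0.3% of all probe sets called higher and 0.155% lower. With the block 11 of the 16 were called higher, in 8 of the 10 genes, against 1.68%. They were 8 of 10 fibrillar and 3 of 4 type VI probe sets, and 0 of 2 of type IV.

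Col3a1, the chain of type III collagen, which is rich in young and healing tissue, has 3 probe sets. On 102990_at its levels were 9.54, 9.62 and 10.14 in Dysf_null_QF, against 7.77, 7.51 and 8.27 in Control_QF. Every Dysf_null array was above every Control array. The difference was 1.92 ± 0.20, a 3.77-fold higher level (95% interval 1.48 to 2.35 on the log2 scale, adjusted p = 0.0019, and 0.000108 with the block). The call held when any 1 of the 12 arrays was left out (adjusted p between 0.000963 and 0.0214), and was lost when arrays were scaled to a common median (adjusted p = 0.122) or the QF arrays were fitted alone (0.241).
The other probe sets of Col3a1 gave smaller differences. On 98331_at the levels were 12.16, 12.21 and 12.11 in Dysf_null_QF, against 11.56, 11.82 and 11.08 in Control_QF, a difference of 0.67 ± 0.19 (adjusted p = 0.223, and 0.0151 with the block). On 161984_f_at they were 10.56, 11.45 and 10.29 in Dysf_null_QF, against 10.07, 10.69 and 9.81 in Control_QF, and the groups overlapped (0.57 ± 0.33, adjusted p = 0.901, and 0.0404 with the block). Over the 12 arrays 102990_at correlated with 98331_at at r = 0.51 and with 161984_f_at at r = 0.00. After removal of group means these correlations were -0.47 and -0.44. In the array maker's naming, the suffix f marks probes that can match several similar sequences, and r marks a set for which a probe selection rule was dropped.

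Col1a1 and Col1a2, the chains of type I collagen, each had 1 probe set with a large difference and 1 without. Col1a1 on 94305_at was at 12.83, 12.94 and 13.48 in Dysf_null_QF, against 11.67, 12.02 and 12.35 in Control_QF, with no overlap. The difference was 1.07 ± 0.27, or 2.1-fold (adjusted p = 0.16, and 0.000308 with the block). Col1a2 on 101130_at was at 11.67, 11.76 and 12.72 in Dysf_null_QF, against 10.31, 10.18 and 11.67 in Control_QF. Here the highest Control array met the lowest Dysf_null array, and both arrays numbered 3 were the high ones of their groups. The difference was 1.33 ± 0.44 (adjusted p = 0.368), and 0.000308 with the block, where the 3 pairs differed by 1.35, 1.58 and 1.05.
These 2 probe sets tracked each other over the 12 arrays (r = 0.96), the highest correlation among the members. The second probe set of each gene did not follow. Col1a1 on 103709_at was at 11.46, 11.77 and 9.86 in Dysf_null_QF, against 10.99, 11.30 and 9.76 in Control_QF (0.35 ± 0.45, adjusted p = 1, and 0.0801 with the block). Its correlation with 94305_at was r = -0.17. Col1a2 on 161156_r_at was at 9.94, 10.30 and 9.65 in Dysf_null_QF, against 10.21, 10.56 and 9.66 in Control_QF. It was the member with a difference below 0 in QF (-0.19 ± 0.23, adjusted p = 1), and its correlation with 101130_at was r = -0.56.

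The type V chains were higher on all 3 of their probe sets with the block. Col5a2 was at 10.61, 10.35 and 10.68 in Dysf_null_QF, against 9.91, 9.59 and 10.02 in Control_QF, with no overlap (0.70 ± 0.15, adjusted p = 0.0819, and 0.00226 with the block). Col5a1 on 93472_at was at 9.28, 9.57 and 9.39 in Dysf_null_QF, against 8.93, 8.90 and 8.88 in Control_QF, the narrowest Control group of any member (SD 0.02). Its difference was 0.52 ± 0.13 (adjusted p = 0.133, and 0.0212 with the block). Col5a1 on 101080_at was at 8.50, 7.82 and 8.62 in Dysf_null_QF, against 7.58, 6.05 and 7.88 in Control_QF. Control_QF 2, one of the arrays that stood apart, was the lowest by far, and the difference was 1.14 ± 0.38 (adjusted p = 0.374, and 0.0141 with the block).

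All 4 probe sets of the type VI chains had higher levels in every Dysf_null_QF array than in any Control_QF array. Col6a3, the longest chain of the type VI heterotrimer, was at 11.17, 10.88 and 11.36 in Dysf_null_QF, against 10.46, 10.08 and 10.45 in Control_QF. It was 1.75-fold higher (0.81 ± 0.15, adjusted p = 0.0394, and 0.00167 with the block). That call was fragile without the block: it held in 2 of the 12 fits that left out 1 array, those without Dysf_null_QF 2 and without Control_QF 3, and adjusted p reached 0.163 in the others.
Col6a2 was at 9.46, 9.37 and 9.68 in Dysf_null_QF, against 8.86, 8.95 and 8.61 in Control_QF (0.70 ± 0.22, adjusted p = 0.333, and 0.0202 with the block). Col6a1 on 162459_f_at was at 8.56, 8.43 and 9.13 in Dysf_null_QF, against 8.16, 7.06 and 8.24 in Control_QF (0.89 ± 0.28, adjusted p = 0.34, and 0.0296 with the block). Control_QF 2 was again the low array of its group. Col6a1 on 95493_at was at 10.84, 10.29 and 10.66 in Dysf_null_QF, against 10.17, 10.02 and 10.08 in Control_QF, and was called in neither fit (0.51 ± 0.21, adjusted p = 0.639, and 0.0874 with the block).

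The type IV chains were called in neither fit. Col4a1 was at 11.78, 12.06 and 11.24 in Dysf_null_QF, against 11.40, 11.60 and 11.21 in Control_QF, and the groups overlapped. Its difference was 0.29 ± 0.24 (95% interval -0.24 to 0.82, adjusted p = 0.984, and 0.182 with the block). Col4a2 was at 10.28, 10.30 and 10.04 in Dysf_null_QF, against 10.06, 10.16 and 9.82 in Control_QF, a difference of 0.20 ± 0.14 (95% interval -0.11 to 0.50, adjusted p = 0.984, and 0.28 with the block). Both chains were higher in 3 of 3 same-numbered pairs, by 0.38, 0.46 and 0.02 for Col4a1 and by 0.23, 0.14 and 0.22 for Col4a2.

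**Figure D1:**
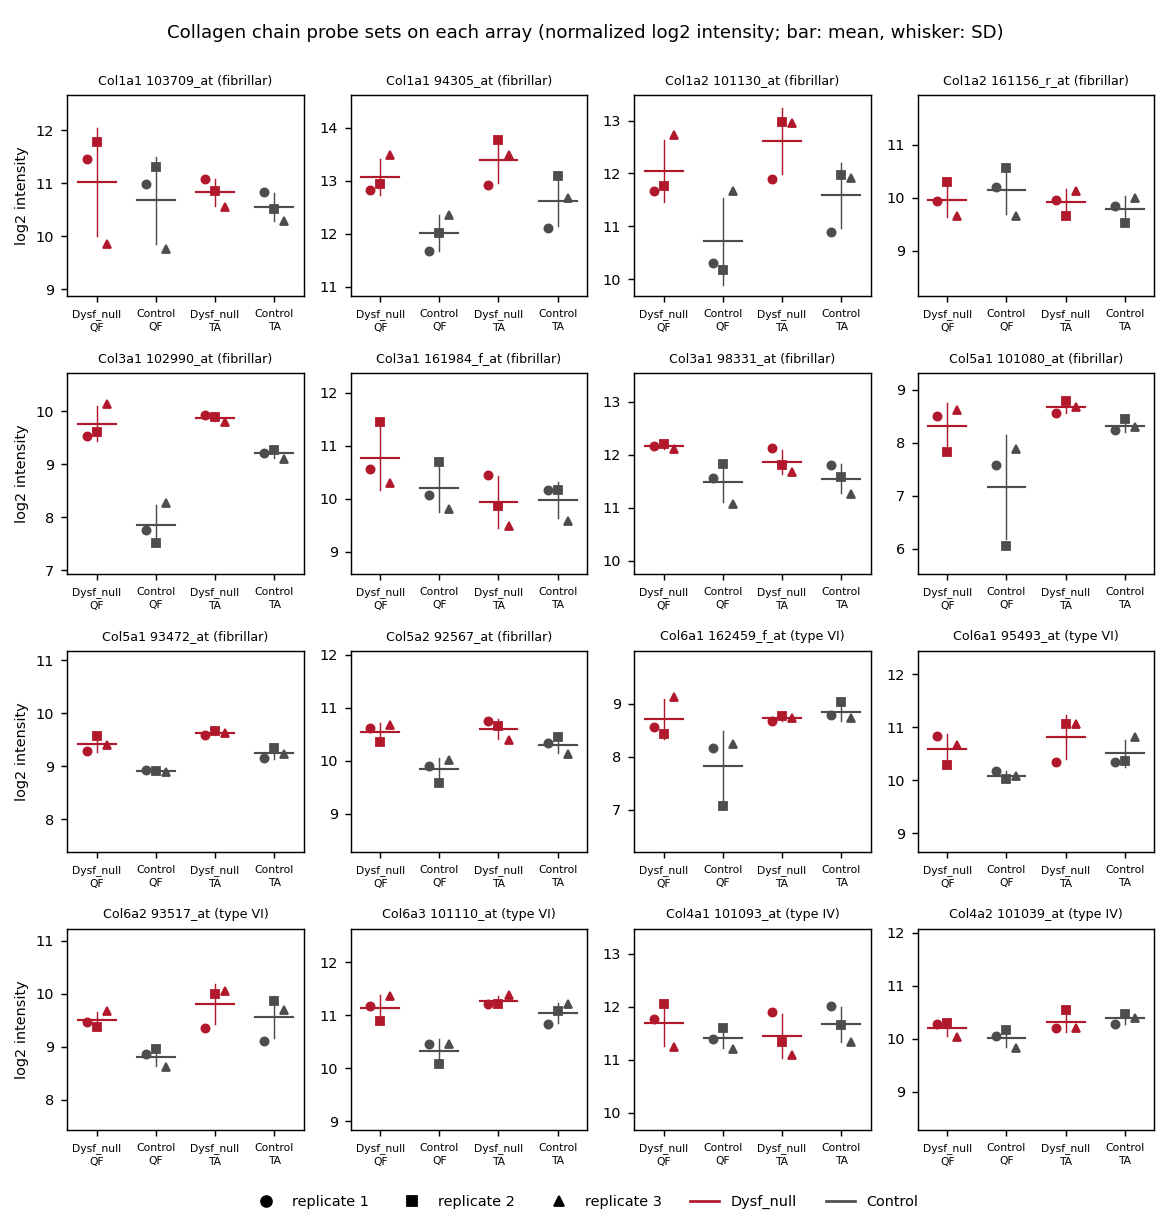
Normalized log2 intensity (vertical axis) of each of the 16 collagen chain probe sets on the 12 arrays, by group, with markers for replicate number, a bar for the mean and a whisker for the SD (n = 3). Col3a1 on 102990_at sits at 9.54 to 10.14 in Dysf_null_QF and 7.51 to 8.27 in Control_QF, while the Col4a1 and Col4a2 groups overlap.

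Counted over the members in QF, 15 of 16 probe sets had a difference above 0, against 48.5% of all probe sets tested, and 9 had Dysf_null and Control arrays that did not overlap, against 4.08%. The 9 were 5 fibrillar, 4 type VI and 0 type IV. The median difference was 0.69 for the fibrillar probe sets (from -0.19 to 1.92), 0.75 for type VI (0.51 to 0.89) and 0.24 for type IV (0.20 to 0.29), beside -0.01 over all probe sets. Probe sets of a gene share its transcript and are not independent. In 15 of 16 the Dysf_null array was higher in 3 of 3 same-numbered pairs, against 15.6% of all. With the block, 5 calls held when any 1 of the 6 pairs was left out: Col1a1 on 94305_at, Col1a2 on 101130_at, Col3a1 on 102990_at, Col5a2 and Col6a3.

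In TA the genotype differences of the same probe sets were smaller, and 0 of the 16 were called on the main fit, against a background of 0.252% called higher. At an unadjusted p under 0.05, 4 of the 16 were higher, against 2.65% of all probe sets: Col1a1 on 94305_at, Col1a2 on 101130_at, Col3a1 on 102990_at and Col5a1 on 93472_at. With the block 3 were called higher, the first 3 of these, against 0.92% of all probe sets, and 0 with a block over all 4 groups.
Col1a2 on 101130_at was at 11.90, 12.98 and 12.96 in Dysf_null_TA, against 10.89, 11.98 and 11.91 in Control_TA. The arrays numbered 1 were the low ones of both groups, so the groups overlapped while the pairs differed by 1.01, 1.00 and 1.06. The difference was 1.02 ± 0.44 (adjusted p = 0.965), with an SE of 0.09 and adjusted p = 0.00102 with the block. Col1a1 on 94305_at was at 12.93, 13.77 and 13.49 in Dysf_null_TA, against 12.12, 13.09 and 12.67 in Control_TA, a difference of 0.77 ± 0.27 (adjusted p = 0.673, and 0.00115 with the block).
Col3a1 on 102990_at was at 9.94, 9.89 and 9.80 in Dysf_null_TA, against 9.22, 9.28 and 9.11 in Control_TA. These were the tightest groups of that probe set (SD 0.07 and 0.09), and they did not overlap. The difference was 0.67 ± 0.20, or 1.59-fold (adjusted p = 0.426, and 0.0105 with the block). The blocked call was lost without TA pair 1, 2 or 3 (adjusted p = 0.0832, 0.0757 and 0.127), whereas those of Col1a1 and Col1a2 held without any 1 pair. With the TA arrays fitted alone Col3a1 was called (adjusted p = 0.0362), and with array weights (0.0236).

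The remaining fibrillar probe sets had differences in TA between -0.04 (Col3a1 on 161984_f_at) and 0.39 (Col5a1 on 93472_at). Both Col5a1 probe sets had no overlap between genotypes, at 9.59, 9.67 and 9.62 in Dysf_null_TA against 9.15, 9.34 and 9.22 in Control_TA on 93472_at (adjusted p = 0.519, and 0.093 with the block). Col5a2 was at 10.76, 10.65 and 10.40 in Dysf_null_TA, against 10.33, 10.44 and 10.12 in Control_TA, and the groups overlapped (0.31 ± 0.15, adjusted p = 1, and 0.107 with the block).
Among the type VI chains, Col6a3 was at 11.20, 11.20 and 11.38 in Dysf_null_TA, against 10.84, 11.07 and 11.21 in Control_TA, and the highest Control array reached the lowest of Dysf_null (0.22 ± 0.15, adjusted p = 1, and 0.281 with the block). Col6a2 was at 9.36, 10.00 and 10.04 in Dysf_null_TA, against 9.11, 9.87 and 9.69 in Control_TA (0.24 ± 0.22), with the arrays numbered 1 low in both groups. Type VI differences in TA ran from -0.12 to 0.31 and type IV from -0.22 to -0.07, with none called in either fit. Col4a1 was at 11.91, 11.34 and 11.09 in Dysf_null_TA, against 12.01, 11.65 and 11.34 in Control_TA, lower in each pair (-0.22 ± 0.24, adjusted p = 1, and 0.397 with the block). Col4a2 was at 10.21, 10.54 and 10.20 in Dysf_null_TA, against 10.28, 10.47 and 10.40 in Control_TA (-0.07 ± 0.14, adjusted p = 1).

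Over the members in TA, 12 of 16 differences were above 0, against 48.8% of all probe sets. The groups did not overlap for 3 probe sets, all fibrillar, where 6.92% of all probe sets did not. The median difference was 0.33 for fibrillar, 0.23 for type VI and -0.14 for type IV probe sets, beside 0.00 over all. With arrays scaled to a common median these values were 0.23, 0.07 and -0.32, beside -0.05 over all, and with the deposited values the type VI and type IV medians were 0.16 and -0.22.

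**Figure D2:**
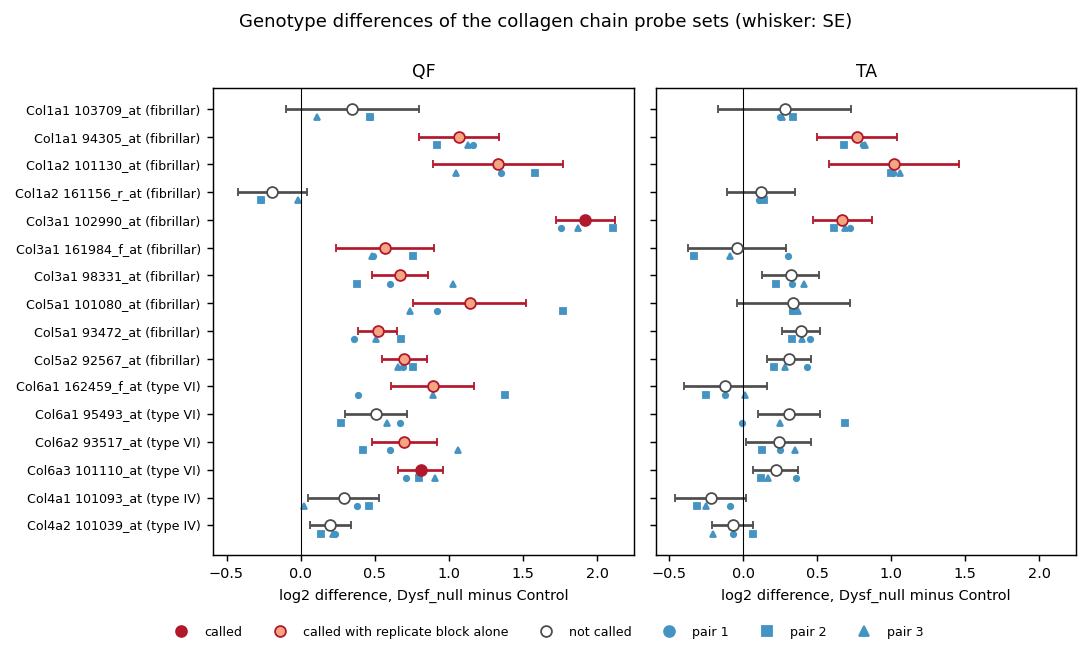
Genotype difference (log2, Dysf_null minus Control, horizontal axis) of each collagen chain probe set in QF (left) and TA (right), with circles for the fitted value and whiskers for the SE, and small blue markers for the 3 same-numbered pairs. Filled red marks the 2 probe sets called on the main fit in QF, pale red those called with the block alone, and both type IV probe sets lie at 0.20 to 0.29 in QF and below 0 in TA.

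Averaged over both muscles, 5 of the 16 probe sets were higher in Dysf_null mice, against 0.784% of all probe sets, and 11 with the block, against 2.71%. Col3a1 on 102990_at gave 1.29 ± 0.14 (adjusted p = 0.000717), and this call held in all 28 alternative fits. The others were Col1a1 on 94305_at (0.92 ± 0.19, adjusted p = 0.0413), Col5a1 on 93472_at (0.45 ± 0.09, 0.0265), Col5a2 (0.51 ± 0.11, 0.0444) and Col6a3 (0.51 ± 0.11, 0.0444). These 4 calls depended on single arrays: they held in 3, 4, 2 and 2 of the 12 fits without 1 array, where their adjusted p reached 0.123, 0.0934, 0.132 and 0.142. The median over the fibrillar probe sets was 0.50, over type VI 0.44 and over type IV 0.05.

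The classes were also set against each other within each array. A class profile is the mean, over the probe sets of the class, of the log2 level less that probe set's mean over the 12 arrays, so it is a deviation and not a level. The fibrillar profile averaged 0.29 ± 0.06 in Dysf_null_QF and -0.51 ± 0.04 in Control_QF, and 0.32 ± 0.06 in Dysf_null_TA and -0.10 ± 0.11 in Control_TA (SD, n = 3 each). Dysf_null and Control did not overlap in either muscle. This profile averages 10 probe sets, against 4 for type VI and 2 for type IV, and opposite deviations cancel in a mean. Within groups, for example, Col1a1 on 103709_at and on 94305_at correlated at -0.63. The spread and overlap of the classes are therefore not directly comparable. The type VI profile averaged 0.14 ± 0.23 in Dysf_null_QF and -0.59 ± 0.21 in Control_QF, and 0.30 ± 0.22 in Dysf_null_TA and 0.14 ± 0.19 in Control_TA, where the groups overlapped. The type IV profile averaged 0.06 ± 0.28 in Dysf_null_QF and -0.18 ± 0.18 in Control_QF, and -0.01 ± 0.21 in Dysf_null_TA and 0.13 ± 0.14 in Control_TA, overlapping in both muscles.
In each of the 6 same-numbered pairs the genotype difference of the fibrillar profile was larger than that of the type IV profile, by 0.45, 0.61 and 0.64 in QF and by 0.55, 0.48 and 0.66 in TA. The type VI profile exceeded type IV in its genotype difference by 0.29, 0.41 and 0.74 in QF and by 0.20, 0.29 and 0.42 in TA. Fibrillar less type VI gave 0.16, 0.20 and -0.11 in QF, with no common direction, and 0.35, 0.18 and 0.24 in TA. These contrasts are described with no test, since a class is a handful of probe sets and the genes were chosen with earlier results known.

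**Figure D3:**
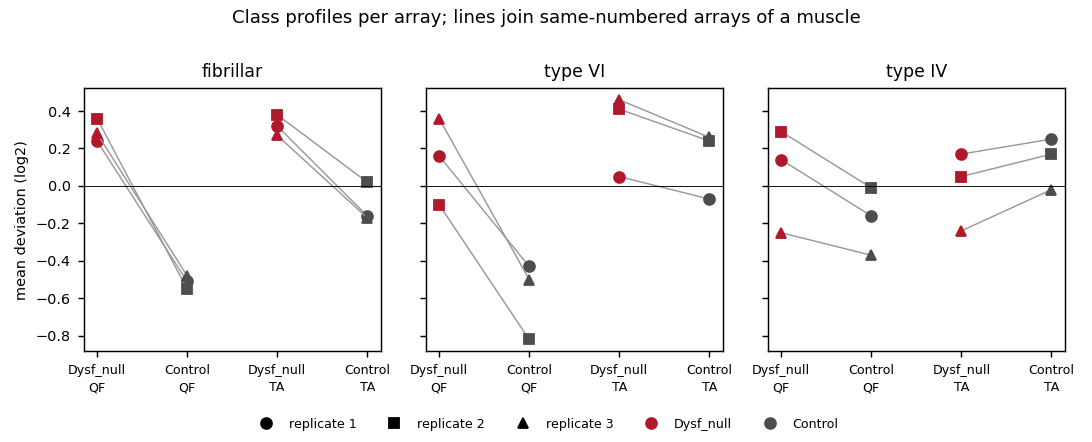
Class profile (mean log2 deviation of the probe sets of a class from their mean over the 12 arrays, vertical axis) on each array, for fibrillar, type VI and type IV chains, with lines joining same-numbered arrays of a muscle. In the fibrillar panel every Dysf_null array (0.24 to 0.38) lies above every Control array (-0.55 to 0.02). In the type VI panel the groups are apart in QF and overlap in TA, and in the type IV panel they overlap in both. The panels average 10, 4 and 2 probe sets, so their spreads are not directly comparable.

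The members were also compared between muscles within each genotype. In Control mice 1 probe set was called higher in TA than in QF, Col3a1 on 102990_at (1.36 ± 0.20, or 2.56-fold, adjusted p = 0.00569), against 0.407% of all probe sets. This call was lost with median scaling (adjusted p = 0.0607) and with the Control arrays fitted alone (0.103). In Dysf_null mice 0 were called, against 0.0968% called higher, and 1 of the 16 had an unadjusted p under 0.05, Col3a1 on 161984_f_at, which had a lower mean in TA, as had 2.65% of all probe sets at that threshold (-0.84 ± 0.33, adjusted p = 0.779). Col3a1 on 102990_at gave 0.11 ± 0.20 there (adjusted p = 0.94). The order of its group means was thus 9.88 in Dysf_null_TA, 9.77 in Dysf_null_QF, 9.21 in Control_TA and 7.85 in Control_QF, and the first pair in that order overlapped, while Dysf_null_QF and Control_TA, its middle pair, did not overlap and were not compared by a test.
TA and QF arrays of Control mice did not overlap for 9 of 16 probe sets, all higher in TA, against 8.16% of all probe sets. They were 4 fibrillar, 4 type VI and 1 type IV (Col4a2). In Dysf_null mice 1 of 16 did not overlap (Col5a1 on 93472_at), against 5.71%. The median TA minus QF difference was 0.39 in Control and 0.09 in Dysf_null mice for the fibrillar probe sets, 0.73 and 0.18 for type VI, and 0.32 and -0.07 for type IV. With median scaling they were 0.70 in Control and 0.33 in Dysf_null mice for fibrillar, 1.07 and 0.38 for type VI, and 0.68 and 0.17 for type IV, while the median over all probe sets was 0.10 in Control and 0.08 in Dysf_null mice. The sign for type IV in Dysf_null mice thus depended on the scaling, and it was 0.03 with the deposited values. Without both QF arrays numbered 2, Col3a1 on 102990_at gave 1.18 ± 0.20 in Control mice (adjusted p = 0.0291). The muscle difference in Control mice, the genotype difference in QF and the interaction given next all use the Control_QF arrays. They are not independent, since low levels in that group move all of them.

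The interaction, the genotype difference in TA less that in QF, is the test of whether the muscles differ in their response. It was above 0 for 1 of 16 members (Col1a2 on 161156_r_at), against 49.5% of all probe sets, and 0 were called on the main fit, against 0.0387% of all probe sets called lower. At an unadjusted p under 0.05, 3 of the 16 were lower, against 1.53% of all probe sets: Col3a1 on 102990_at, Col6a1 on 162459_f_at and Col6a3. With the block Col3a1 on 102990_at was called (-1.24 ± 0.14, adjusted p = 0.00914, against 0.349 on the main fit), where 0.145% of all probe sets were lower. That call was lost without TA pair 1, 2 or 3 (adjusted p = 0.0519, 0.0671 and 0.0866) and with a block over all 4 groups (0.288). Col6a3 gave -0.59 ± 0.22 (adjusted p = 1, and 0.0962 with the block). The median interaction was -0.33 for fibrillar, -0.52 for type VI and -0.39 for type IV probe sets. The type IV probe sets gave -0.51 ± 0.35 (Col4a1) and -0.26 ± 0.20 (Col4a2), neither called with the block (adjusted p = 0.251 and 0.506).

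The members differed in how closely they varied together. Over the 12 arrays the median correlation between probe sets was 0.40 within the fibrillar class (45 pairs, from -0.72 to 0.96), 0.83 within type VI (6 pairs, 0.57 to 0.87) and 0.64 between fibrillar and type VI. Col4a1 and Col4a2 correlated at 0.30 with each other. Their median was 0.26 with the fibrillar (from -0.39 to 0.75) and 0.14 with the type VI probe sets (-0.37 to 0.70). These points share arrays and groups, and no p is given. The values over 12 arrays include the differences between groups. After removal of group means, the type VI pairs correlated at 0.05 to 0.73, with both probe sets of Col6a1 at 0.16. Fibrillar with type VI pairs then ran from -0.87 to 0.93, and both probe sets of Col5a1 correlated at -0.20. On these same deviations, Col1a1 on 94305_at and Col1a2 on 101130_at correlated at 0.89, while Col1a1 on 103709_at and Col1a2 on 101130_at correlated at -0.84. Col4a1 correlated at 0.90 with Col3a1 on 161984_f_at and 0.79 with Col1a1 on 103709_at, but at -0.83 with Col1a2 on 101130_at and -0.82 with Col6a3. Its medians thus average opposite values, which depend on the probe set.

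**Figure D4:**
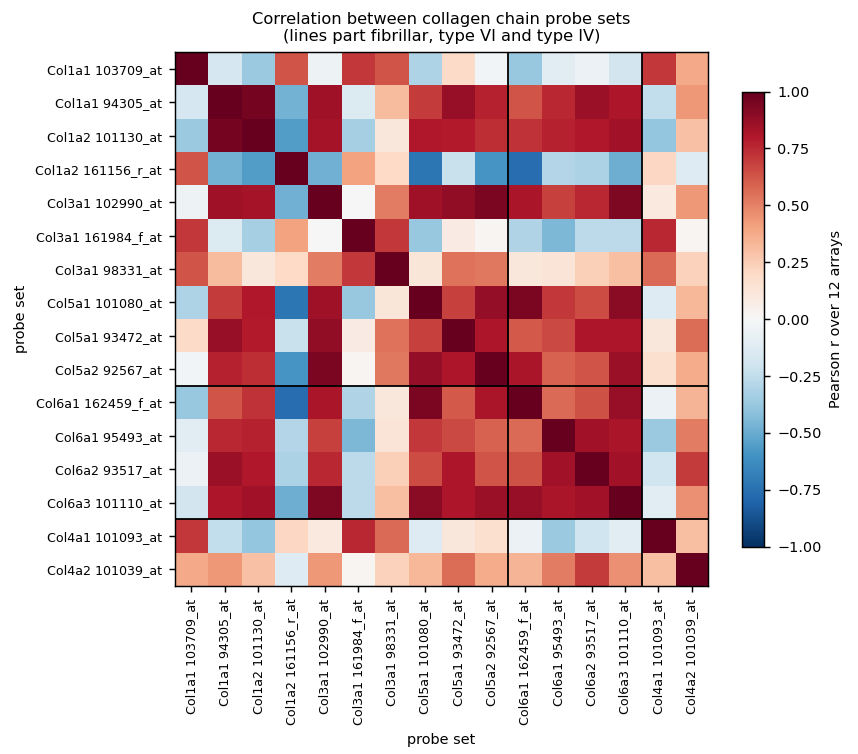
Pearson correlation over the 12 arrays between each pair of the 16 collagen chain probe sets (colour, -1 to 1), with lines between fibrillar, type VI and type IV. The correlation of Col1a1 on 94305_at with Col1a2 on 101130_at is 0.96, and the type VI probe sets correlate with each other at 0.57 to 0.87, while Col3a1 on 98331_at is at 0.11 to 0.30 with type VI and at 0.63 with Col1a1 on 103709_at, 0.71 with Col3a1 on 161984_f_at and 0.57 with Col4a1.

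The genes whose levels over the 12 arrays were most like each class profile were named by Pearson r, as a description. For the fibrillar chains they were Anxa5 (r = 0.97), a membrane-binding annexin, Tpm4 (0.96), a cytoskeletal tropomyosin, Tubb5 (0.95), a tubulin, Actg1 (0.95), a cytoplasmic actin, and Serpinh1 (0.94), the collagen chaperone of the endoplasmic reticulum. For type VI they were Tubb5 (0.98, on another probe set), Smyd1 (0.94), a muscle methyltransferase, Crip1 (0.93), Scamp2 (0.93) and Smc2 (0.93), a condensin subunit. For type IV they were Ptges2 (0.87), Mrpl48 (0.86), Adck1 (0.86), Irf5 (0.81) and Mpp3 (0.80). After removal of group means, r with the fibrillar profile was 0.12 for Anxa5, 0.24 for Tpm4, -0.13 for Tubb5, 0.73 for Actg1 and 0.05 for Serpinh1. With the type VI profile it was then 0.92 for Tubb5, 0.77 for Smyd1, 0.92 for Crip1, 0.82 for Scamp2 and 0.69 for Smc2. With the type IV profile it was 0.86 for Ptges2, 0.85 for Mrpl48, 0.95 for Adck1, 0.85 for Irf5 and 0.71 for Mpp3. The fibrillar likeness thus lay mainly between groups for 4 of its 5 genes. The type VI and type IV likeness was also present between arrays of a group. These genes were picked on the same arrays, and the fibrillar profile itself varied little within groups. Its group SDs were 0.04 to 0.11, against 0.19 to 0.23 for type VI and 0.14 to 0.28 for type IV. The contrast therefore follows in part from the profiles and is no separate result about the classes.

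Counts in the gene lists below stand beside the shares of all probe sets called higher. These shares were 0.3% in QF, 0.252% in TA and 0.784% on average, and with the block 1.68%, 0.92% and 2.71%. Genes that fold, modify and crosslink collagen were examined as a list, 18 of which were measured. In QF 2 rose and 3 with the block, in TA 0 and 2, and averaged over both muscles 3 and 4, with none lower. Serpinh1 was at 10.80, 10.65 and 10.70 in Dysf_null_QF, against 9.65, 9.35 and 9.52 in Control_QF, with no overlap (1.21 ± 0.15, adjusted p = 0.00452). Sparc, a matricellular protein that binds collagen, rose in QF by 0.96 ± 0.13 (adjusted p = 0.00654). Crtap, a part of the prolyl 3-hydroxylase complex, rose on average by 0.62 ± 0.12 (adjusted p = 0.0278), and P4ha1, a prolyl 4-hydroxylase subunit, gave 0.68 ± 0.19 (adjusted p = 0.139, and 0.0516 with the block). The list's median was 0.39 in QF and 0.15 in TA.
Among 17 measured fibril partners and matrix glycoproteins, 2 rose in QF (8 with the block), 1 in TA (3) and 2 on average (11), and none fell. Fmod, the small proteoglycan fibromodulin that binds type I collagen, was at 10.06, 10.02 and 10.20 in Dysf_null_QF, against 8.11, 8.80 and 8.82 in Control_QF, and at 9.91, 10.50 and 10.71 in Dysf_null_TA, against 8.35, 9.06 and 9.19 in Control_TA. It rose by 1.51 ± 0.26 in each muscle (adjusted p = 0.0242 in QF and 0.0202 in TA). Postn, periostin, rose in QF by 1.50 ± 0.21 (adjusted p = 0.00654). Lum, lumican, gave 0.75 ± 0.20 in QF (adjusted p = 0.2, and 0.00235 with the block) and Mfap5, a microfibril protein, 1.26 ± 0.27 (0.0677, and 0.00304 with the block). The median of these partners was 0.55 in QF and 0.38 in TA.
Of the 10 basement membrane partners, laminins, nidogens and proteoglycans, 0 were called in QF, TA or their average with or without the block. Their median was 0.16 in QF and -0.06 in TA, and Lama4, a laminin chain of vessels and muscle, had the smallest p of the list on average (0.25 ± 0.11, adjusted p = 0.617 by limma).

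Of 17 other collagen chains measured, 0 were called in QF, TA or their average, and with the block 2 rose, in QF and on average. These were Col14a1, a chain on the fibril surface (1.03 ± 0.28 in QF, adjusted p = 0.203, and 0.0136 with the block), and Col15a1, of the zone between basement membrane and stroma (1.14 ± 0.26, 0.101, and 0.0229 with the block). Of 5 collagen receptors measured, Antxr2, which takes up type VI collagen, was called with the block in QF (0.89 ± 0.26, adjusted p = 0.0151, against 0.269 without it), and the others were not.
Of 11 genes of collagen breakdown and its inhibitors, 0 rose in QF, 2 in TA (3 with the block) and 2 on average (5). Mmp9, a gelatinase, was at 7.57, 7.53 and 7.83 in Dysf_null_TA and at the floor on all 3 Control_TA arrays, a difference of at least 3.12 (adjusted p = 0.0201). Mmp13, a collagenase, was at 7.70, 8.31 and 7.85 in Dysf_null_TA, against 5.31, 5.63 and 6.22 in Control_TA (2.23 ± 0.40, adjusted p = 0.0247). Ctsk, the collagen-degrading cathepsin, gave 1.43 ± 0.29 in TA (adjusted p = 0.0687, and 0.00318 with the block). Of 15 TGF-beta pathway genes 0 were called, and with the block Tgfb3, a ligand, rose in QF (0.67 ± 0.23, adjusted p = 0.0209).

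Markers of the cell types that could carry the chains moved in part with genotype. Of 13 measured fibroblast markers 2 rose in QF, Thy1 (1.19 ± 0.23, adjusted p = 0.0394) and Serpinf1 (1.05 ± 0.18, 0.0208), 1 in TA and 1 on average (5, 2 and 6 with the block). Their summed intensity was 17378 to 22370 in Dysf_null_QF, against 13859 to 18870 in Control_QF, and 17708 to 22157 in Dysf_null_TA, against 15862 to 17847 in Control_TA. Some of these markers (Lum, Mfap5 and Dpt among them) are themselves matrix genes of another list. Tcf21, a fibroblast progenitor factor, did not pass the filter on low values.
Of 5 tendon markers 2 rose in QF, Fmod and Kera (1.41 ± 0.27, adjusted p = 0.0394), and 1 in TA, with sums of 2379 to 2570 in Dysf_null_QF, against 1272 to 1506 in Control_QF, and 2151 to 2753 in Dysf_null_TA, against 1238 to 1450 in Control_TA. The tendon sums did not overlap between genotypes in either muscle. Fmod is also counted in the list of fibril partners.
The red cell markers moved too: 1 of 5 rose in QF (3 with the block) and 4 in TA. Their sums were 21243 to 27525 in Dysf_null_QF, against 15901 to 16200 in Control_QF, and 22836 to 26223 in Dysf_null_TA, against 11809 to 15759 in Control_TA. Hba-a1 was at 13.41 to 14.65, against 8.07 to 10.47 for Alas2, so it weighs far more in these sums. Of 12 macrophage markers 0 rose in QF (2 with the block), and in TA Cd68 fell by 1.27 on the log2 scale (adjusted p = 0.0104), while C1qa, a complement gene of macrophages, gave 0.60 ± 0.21 there (0.627, and 0.0282 with the block). Of the 12, 10 had differences above 0 in TA. Averaged over both muscles Lyz2, a lysozyme, rose by 0.70 ± 0.13 (adjusted p = 0.0219), and with the block 2 macrophage markers rose and 1 fell. Their sums were 4047 to 4804 in Dysf_null_QF, against 3173 to 3752 in Control_QF, and 3762 to 4326 in Dysf_null_TA, against 3236 to 3974 in Control_TA. Itgam did not pass the filter.
Of 11 endothelial, 9 mural, 5 bone and cartilage, 4 Schwann and 6 fat markers 0 were called by genotype on the main fit. With the block 1 was, the Schwann marker Pmp22 on average over muscles (0.37 ± 0.13, adjusted p = 0.00916, against 0.359 without it). Endothelial sums were 2346 to 2657 in Dysf_null_QF, against 2003 to 2258 in Control_QF, with no overlap, and overlapped in TA. Mural sums were 2568 to 2795 in Dysf_null_QF, against 2243 to 2330 in Control_QF, with no overlap, and overlapped in TA. Schwann sums were 1189 to 1544 in Dysf_null_TA, against 1040 to 1134 in Control_TA, with no overlap, and overlapped in QF. Bone and fat sums overlapped between genotypes in both muscles. The 10 muscle fibre markers had sums of 115829 to 122315 in Dysf_null_QF, against 125157 to 128854 in Control_QF. In TA they were 107932 to 117865 in Dysf_null_TA, against 118462 to 128574 in Control_TA. The sums were lower in Dysf_null with no overlap, but 0 of the 10 markers were so singly, and 0 were called. Acta1 (14.05 to 14.50), Tnnt3 (13.85 to 14.50) and Hba-a1 (13.41 to 14.65) stood among the highest values. Quantile normalization gives each array the same set of values, so a higher rank of any gene there lowers others. Whether that moved the sums was not tested. Fat marker sums were 1447 to 1637 in Control_TA, against 3046 to 3380 in Control_QF, and 1449 to 1868 in Dysf_null_TA, against 3092 to 3480 in Dysf_null_QF. The part of these cell types in the collagen differences was not tested.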

How the data were processed

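The deposited table gave linear-scale intensities of 12 arrays, which the authors had scaled to a common mean (200.1 to 200.2 on every array without the lowest and highest 2%). The software behind them is not given in the sources used here. Of 12488 probe sets, 66 controls were left out. The medians of the arrays differed 1.47-fold, so the 12422 others were quantile normalized, floored at the 25th percentile (23.025, log2 4.53) and put on the log2 scale, and 10331 were fitted, those exceeding the floor on 3 or more arrays. Names came from the platform's annotation (10833 probe sets with 1 symbol, 396 with several, 1193 not named there).

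limma 3.58.1 (R 4.3.3) fitted group means to all 12 arrays with an intensity trend in the variance (8 residual degrees of freedom, 4 with the block), two-sided. The fit was also run on simulated data, in which the arrays given to the main fit were independent of each other. Same-numbered arrays of the data were not, so that run does not check the main fit under such sharing. With 3 arrays a group, the SE of a difference between 2 groups had a median of 0.323, and this limits the precision. Same-numbered arrays of a muscle correlated above 0.1 in all 6 pairs, so their numbers were taken to pair them. The labels do not state such a pairing. Across muscles the correlations of same-numbered arrays were not all above 0.1 (r of -0.14 to 0.14).

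The members and gene lists were chosen with earlier results of these data known. Every member probe set was described. Of each list up to 4 genes with the smallest p on average could be named, with the probe set of the highest mean standing for a gene; Dpt was named after its values were seen. Figures used Python 3.11.15 and matplotlib 3.10.9. Alternatives covered normalization, floor, filter, variance model, arrays in the fit and pairing.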

Additional observations from a re-analysis of the deposited data

Results flagged for a closer look

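The genotype difference of Col3a1 on 102990_at in TA less that in QF was -1.24 ± 0.29 on the main fit (adjusted p = 0.349) and was called with the block (adjusted p = 0.00914, limma). The genotype difference itself was 0.67 in TA and 1.92 in QF, and in every pair of either muscle the Dysf_null array was the higher one. The other probe sets of the gene gave interactions of -0.61 ± 0.46 (161984_f_at) and -0.35 ± 0.27 (98331_at), neither called with the block (adjusted p = 0.28 and 0.52).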

How the results depend on the processing

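The number of collagen chain probe sets called depended most on the pairing. The main fit called 2 in QF, 0 in TA, 5 on average, 1 between muscles in Control, 0 in Dysf_null and 0 for the interaction. With the replicate block within each muscle 11 were called in QF, 3 in TA, 11 on average and 1 for the interaction, and with a block over all 4 groups 4 in QF, 0 in TA, 7 on average, 2 between muscles in Control and 0 for the interaction. The TA calls of the within-muscle block had adjusted p of 0.115 (Col1a1 on 94305_at), 0.214 (Col1a2 on 101130_at) and 0.309 (Col3a1 on 102990_at) with that block, and its interaction call of Col3a1 had 0.288. The deposited values without further normalization gave 1 in QF and 2 on average, arrays scaled to the same median 0 in QF, 1 on average and 0 between muscles in Control, a floor at the 10th percentile 3 on average, no filter 2 on average, no intensity trend 1 in QF and 1 on average, and array weights 1 in QF and 1 in TA. With the groups compared fitted alone the counts were 0 in QF, 1 in TA and 0 between muscles in Control. Without both QF arrays numbered 2 they were 1 in QF and 3 on average. Leaving out single arrays gave 1 to 2 in QF, 0 in TA, 1 to 6 on average, 1 to 2 between muscles in Control and 0 for the interaction. Leaving out single pairs with the block, an alternative chosen after seeing the data, gave 6 to 10 in QF, 2 to 3 in TA, 7 to 10 on average and 0 to 1 for the interaction. Causes of these changes were not tested, beyond the smaller number of arrays where some were left out.

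The direction changed under 64 of the alternatives for single probe sets, all of them for differences that the main fit did not call, while 2281 kept direction and call. Averaged over muscles, Col4a1 turned to -0.03 with the deposited values, -0.09 with median scaling, and -0.01 with array weights and without both QF arrays numbered 2, and Col4a2 to -0.03 with median scaling. Col1a2 on 161156_r_at in TA turned to -0.00 with median scaling. Between muscles in Control, Col1a1 on 103709_at turned to 0.00 (deposited values), 0.22 (median scaling) and 0.17 (without both QF arrays numbered 2), and Col3a1 on 161984_f_at to 0.16 (median scaling) and 0.03 (without both). Between muscles in Dysf_null, Col1a2 on 161156_r_at turned to 0.05 (deposited values), 0.18 (median scaling), 0.00 (array weights) and 0.12 (without both), and Col1a1 on 103709_at to 0.05 (median scaling) and 0.17 (without both). There Col5a2 turned to -0.02 (array weights) and -0.04 (without both), Col6a1 on 162459_f_at to -0.12 and Col6a3 to -0.00 (without both).
Leaving out single arrays or pairs moved Col1a1 on 103709_at between -0.11 and 0.93 in QF, Col1a2 on 161156_r_at between -0.43 and 0.02 in QF, -0.01 and 0.25 in TA and -0.15 and 0.07 on average, Col3a1 on 161984_f_at between -0.30 and 0.18 in TA, Col4a2 between -0.18 and 0.00 in TA and Col4a1 between -0.08 and 0.15 on average. Between muscles in Control it moved Col1a1 on 103709_at between -0.60 and 0.17, Col3a1 on 161984_f_at between -0.42 and 0.03 and Col3a1 on 98331_at between -0.14 and 0.23. Between muscles in Dysf_null it moved Col1a1 on 103709_at between -0.79 and 0.17, Col1a2 on 161156_r_at between -0.20 and 0.12, Col3a1 on 102990_at between -0.00 and 0.30, Col5a2 between -0.04 and 0.16, Col6a1 on 162459_f_at between -0.12 and 0.23 and Col6a3 between -0.00 and 0.24. For the interaction it moved Col1a1 on 103709_at between -0.65 and 0.40, Col1a2 on 101130_at between -0.78 and 0.05 and Col6a1 on 95493_at between -0.38 and 0.05.
Scaling moved the median of all probe sets by at most 0.10 on the log2 scale, and moved several class medians in TA and between muscles by over 1.5 times. The type IV median averaged over muscles was 0.05 on the main fit and -0.06 with median scaling, so its sign depends on the scaling.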
